A study of Rattus norvegicus with 14 samples.

Results

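The 9 genes described here are Fabp3, Acadl, Acadm, Acadvl, Acaa1a, Acaa2, Cpt1a, Hadha and Vnn1, a set of fatty acid oxidation genes and targets of peroxisome proliferator-activated receptors (PPARs). They were chosen by name from the 18174 genes of the count table. All 9 are in it, 1 row each, and all 9 passed the filter on low counts that left 12719 genes for testing. RNA came from testes of Harlan Sprague Dawley rat fetuses. Their dams were gavaged daily between gestational days 14 and 18, either with corn oil alone (vehicle) or with dicyclohexyl phthalate (DCHP), a phthalate plasticizer, in that oil. DCHP was given at 100, at 300, at 600 and at 900 mg/kg/day. Testes collected on gestational day 18 were pooled by litter, so 1 library stands for 1 litter, with 3 litters per group and 2 at 900 mg/kg/day. RNA was measured by TempO-Seq, a targeted method that ligates paired probes lying side by side on a transcript and sequences the joined product.

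Beta-oxidation shortens fatty acids by repeated removal of acetyl units, in mitochondria and in peroxisomes. Long chains enter mitochondria through the carnitine shuttle, and acyl-CoA dehydrogenases, a hydratase, a hydroxyacyl-CoA dehydrogenase and a thiolase then act in turn. PPARs are nuclear receptors that bind fatty acids and raise transcription of many genes of this pathway, most strongly in rodent liver, and monoesters of several phthalates are known to activate them. In steroid-producing cells the same lipid supply is drawn on for cholesterol esters and energy.

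Libraries held 5558873 to 11272861 estimated counts. The first principal component of log2 CPM (counts scaled to library size) held 36.1% of the variance. Scores of the 900 mg/kg/day litters were -38.2 and -22.8, and 2 litters of lower dose had similar scores, replicate 1 of vehicle (-42.6) and replicate 1 at 100 mg/kg/day (-65.1). The other 10 libraries scored -1.84 to 35.6. Several results that rest on these libraries are also given without some of them. Markers of the testis were present. The Sertoli list summed to 1190 to 1560 CPM and the germ cell list to 811 to 1100 CPM over all libraries, although Fshr was at 0 in 4 libraries.

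At 100, 300, 600 and 900 mg/kg/day the number of the 9 genes that passed against vehicle was 0, 0, 1 and 0. The threshold was 0.05 on the Benjamini-Hochberg adjusted p of edgeR's quasi-likelihood test over all 12719 genes. The background shares of genes passing in either direction were 0%, 0.0472%, 0.22% and 0.252%. The gene that passed was Fabp3, which fell at 600 mg/kg/day. At an unadjusted p under 0.05, 2, 1, 3 and 3 of the 9 genes were lower and none was higher, where 1.6%, 1.76%, 2.89% and 2.86% of all tested genes were lower by that rule. DESeq2 called 0, 0, 1 and 1 of the 9 genes, Fabp3 in both cases, and 2, 26, 58 and 86 of all 12719 genes. Negative log2 fold changes were found for 8, 8, 8 and 6 of the 9 genes, against 47.7%, 52.9%, 53.2% and 46.9% of all genes. The median log2 fold change of the 9 genes was -0.22, -0.31, -0.45 and -0.31, and that of all genes was 0.010, -0.015, -0.021 and 0.024. Groups that did not overlap with vehicle and lay below it were found for 2, 1, 4 and 4 of the 9 genes, where the shares of all genes were 2.99%, 4.46%, 5.92% and 8.83%. None of the 9 genes lay wholly above vehicle at any dose, where 2.99%, 4.88%, 5.06% and 10.3% of all genes did. The 4 comparisons share the vehicle litters. Over all doses, 0 of the 9 slopes passed in edgeR, where 0.425% of all genes passed, and 4 were negative at an unadjusted p under 0.05 (Fabp3, Acaa1a, Vnn1 and Acaa2), as were 2.86% of all genes. Without the 900 mg/kg/day group these slopes were -0.106, -0.063, -0.053 and -0.045 per 100 mg/kg/day. Vnn1 was then not under 0.05 (edgeR unadjusted p = 0.135), while Hadha was (-0.078, 0.0368). In that fit 668 of 12213 genes were under 0.05 in either direction.

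**Figure D1:**
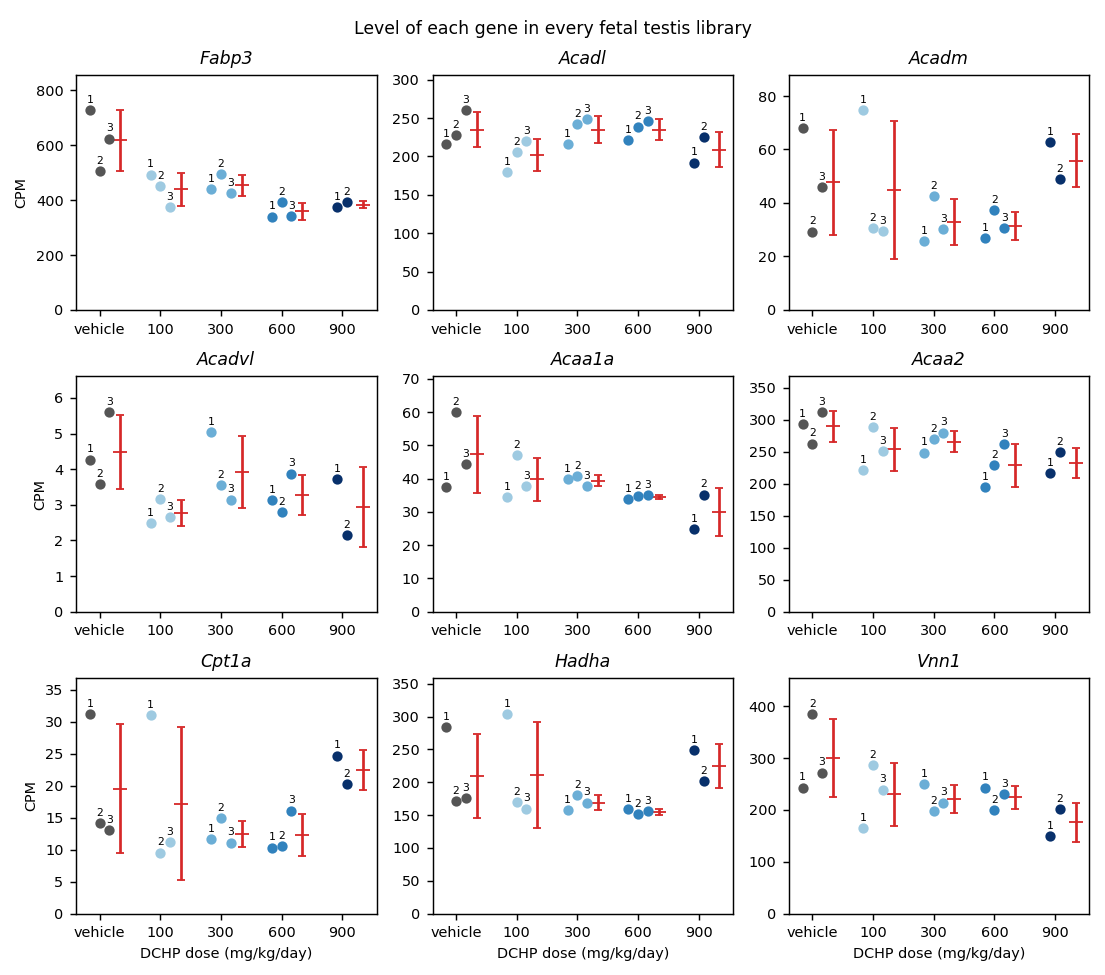
Level of each of the 9 genes in CPM (counts scaled to library size, vertical axis from 0) by dose group. Each point is 1 litter library labelled with its replicate number, and red bars give the group mean and SD. All Fabp3 points of exposed litters lie below the lowest vehicle point of 505 CPM, while Acadm, Cpt1a and Hadha are highest in vehicle replicate 1, 100 mg/kg/day replicate 1 and the 900 mg/kg/day libraries.

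Fabp3 encodes the heart-type fatty acid binding protein, which carries fatty acids through the cytosol. The gene lies on chromosome 5 of rn7, at 142651956 to 142658719 on the plus strand. Its level in the vehicle libraries was 727, 505 and 624 CPM. The 100 mg/kg/day libraries held 493, 450 and 374 CPM, and the 300 mg/kg/day libraries 439, 496 and 427 CPM. At 600 mg/kg/day the values were 340, 394 and 343 CPM, and at 900 mg/kg/day they were 375 and 392 CPM. All 11 exposed libraries were therefore below all 3 vehicle libraries, and Fabp3 was alone among the 9 genes in having no overlap with vehicle at every dose. The share of all genes with this ordering was not determined, and the comparisons share the vehicle litters. In order of group means, vehicle (618 ± 111 CPM, SD, n = 3) was followed by 300 (454 ± 37.2, n = 3), 100 (439 ± 60.2, n = 3), 900 (383 ± 12.3, n = 2) and 600 mg/kg/day (359 ± 30.0, n = 3). Apart from vehicle and 300 mg/kg/day, neighbours in this order overlapped.

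The log2 fold change of Fabp3 against vehicle was -0.78 ± 0.14 (standard error) at 600 mg/kg/day, or 58.1% of the vehicle level (95% interval on the log2 scale -1.09 to -0.48, edgeR adjusted p = 0.0433). At 100, 300 and 900 mg/kg/day it was -0.49 ± 0.14, -0.45 ± 0.14 and -0.69 ± 0.16, with edgeR adjusted p of 0.9999, 0.9995 and 0.147. The slope over all doses was -0.072 ± 0.018 log2 units per 100 mg/kg/day and did not pass in edgeR (adjusted p = 0.152). DESeq2 gave adjusted p of 0.00405 at 900 mg/kg/day and 0.0243 for the slope. The edgeR call at 600 mg/kg/day held in 2 of the 14 fits that each left out 1 library, those without vehicle replicate 2 (adjusted p = 0.0220) and 100 mg/kg/day replicate 1 (0.0125). In the other 12 fits the adjusted p was 0.0510 to 0.304 and the log2 fold change -0.86 to -0.65. The call also ended with RLE size factors (log2 fold change -0.76, adjusted p = 0.0502), without the filter (-0.82, 0.0512) and with vehicle and 600 mg/kg/day fitted alone (-0.76, 0.182). It held with library totals (-0.81, 0.0332), attenuation-adjusted counts (-0.78, 0.0436), DESeq2 (-0.76, 0.000148) and with both first replicates of vehicle and 100 mg/kg/day left out (-0.65, 0.00751).

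In pooled testes, fewer cells of a type and less RNA per cell cannot be told apart. Fetal Leydig cell markers moved with dose, while the slope of Fabp3 did not pass in edgeR. All 10 of the 10 listed markers had negative log2 fold changes at every dose, and 0, 3, 4 and 5 of them fell at 100, 300, 600 and 900 mg/kg/day. Their summed level ranged from 6410 to 11500 CPM in vehicle, 4130 to 6770 at 100, 3430 to 4450 at 300, 2040 to 4220 at 600 and 1540 to 1890 CPM at 900 mg/kg/day, and none of the 10 was at 0 in any library. The part of this change in the fall of Fabp3 was not tested. Striated muscle also expresses Fabp3, and its list summed to 195 to 255 CPM in vehicle, 154 to 220 at 100, 167 to 172 at 300, 167 to 188 at 600 and 161 to 167 CPM at 900 mg/kg/day. Single markers differed in direction at 600 mg/kg/day, where 6 of the 9 tested had positive log2 fold changes, with a median of 0.32, 4 were at an unadjusted p under 0.05 and none passed in edgeR. The number under 0.05 among all 12719 tested genes at that dose was 609. Of its 10 measured markers Mb was at 0 in 6 libraries and Tnnt1 was present at 66.2 to 106 CPM, and its part was not tested. Of the 4 measured brown adipocyte markers, Ucp1, Plin1 and Elovl3 were at 0 in 4, 6 and 8 libraries, and Adipoq was present in all at 1.79 to 11.3 CPM. The list summed to 1.99 to 7.56 CPM in vehicle, 8.49 to 12.6 at 100, 8.59 to 11.3 at 300, 5.6 to 11.3 at 600 and 4.47 to 6.99 CPM at 900 mg/kg/day.

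Hepatocyte markers summed to 2.29 to 7.84 CPM in vehicle and 12.8 to 20.3 CPM at 100 mg/kg/day, without overlap, and to 1.85 to 10.5 CPM over the higher doses. At 100 mg/kg/day all 6 tested hepatocyte markers had positive log2 fold changes, with a median of 2.43, 5 were at an unadjusted p under 0.05 and none passed in edgeR. Among all 12719 tested genes, 433 were under 0.05 at that dose. Erythroid markers summed to 14800 to 42500 CPM in vehicle, 13700 to 33400 at 100, 15200 to 26700 at 300, 23800 to 73500 at 600 and 13100 to 19400 CPM at 900 mg/kg/day, and their median log2 fold change was 0.57 at 600 and -0.61 at 900 mg/kg/day. The part of the brown adipocyte, hepatocyte and erythroid lists in the values of the 9 genes was not tested.

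**Figure D2:**
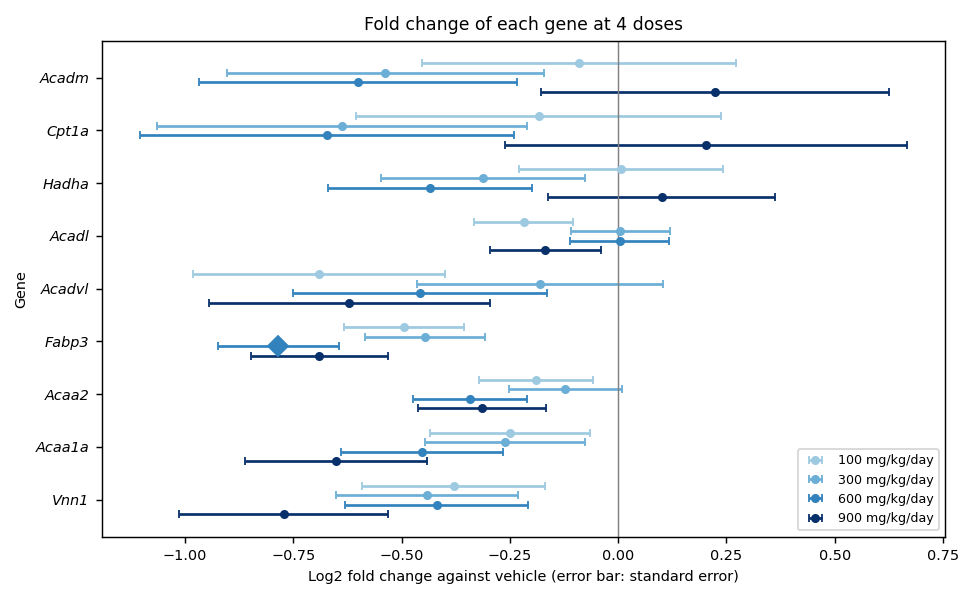
Log2 fold change against vehicle (horizontal axis) of each gene at 100, 300, 600 and 900 mg/kg/day, with the standard error from edgeR. The large diamond marks the value that passed, Fabp3 at 600 mg/kg/day (-0.78), and circles mark values that did not pass.

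Acaa1a and Acaa2 encode 3-ketoacyl-CoA thiolases, which cut the shortened chain at the end of each round, Acaa1a in peroxisomes and Acaa2 in mitochondria. Acaa1a lies on chromosome 8 at 119079775 to 119088625 (plus strand) and was at 37.5, 60 and 44.3 CPM in vehicle. It was at 34.5, 47.0 and 37.9 CPM at 100 and at 39.8, 40.9 and 37.7 CPM at 300 mg/kg/day. The 600 mg/kg/day libraries were close together at 33.9, 34.7 and 35.1 CPM, and those at 900 mg/kg/day held 24.9 and 35.2 CPM. The group means were lower at each higher dose, going from 47.3 ± 11.5 to 39.8 ± 6.45, 39.4 ± 1.63, 34.6 ± 0.64 and 30.1 ± 7.26 CPM (SD), but of the neighbours in that order only 300 and 600 mg/kg/day did not overlap. Both the 600 and the 900 mg/kg/day group lay below every vehicle library. The log2 fold change was -0.45 ± 0.19 at 600 and -0.65 ± 0.21 at 900 mg/kg/day, with edgeR adjusted p of 0.951 and 0.580, and its slope was -0.064 ± 0.018 per 100 mg/kg/day (adjusted p = 0.284).

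Acaa2 lies on chromosome 18 at 68345012 to 68373250 (plus strand). It is among the 16 genes whose signal the assay lowers on purpose, which the submitters undid in a further table by a factor that was 3 for Acaa2 in all 14 libraries. A constant factor leaves fold changes as they are, so the unadjusted level is used below, and in vehicle it was 290 CPM against 862 CPM after adjustment. The vehicle libraries held 294, 263 and 312 CPM, the 100 mg/kg/day libraries 222, 289 and 251 CPM and the 300 mg/kg/day libraries 249, 270 and 280 CPM. At 600 mg/kg/day Acaa2 was at 195, 229 and 262 CPM, and at 900 mg/kg/day at 217 and 250 CPM. The highest 600 mg/kg/day library lay just below the lowest vehicle library of 263 CPM. The log2 fold change was -0.34 ± 0.13 at 600 and -0.31 ± 0.15 at 900 mg/kg/day, without a call in edgeR (adjusted p = 0.923 and 0.852), and the slope was -0.034 ± 0.014.

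Vnn1 encodes vanin 1, a pantetheinase that splits pantetheine, a product of coenzyme A breakdown. It is a PPAR target in rodent liver, and in the mouse it is also known as a gene of fetal Sertoli cells. The rat gene lies on chromosome 1 at 21537094 to 21547396 (minus strand). Levels were 243, 385 and 272 CPM in vehicle, 165, 287 and 239 CPM at 100, 250, 198 and 214 CPM at 300, 243, 200 and 230 CPM at 600, and 149 and 202 CPM at 900 mg/kg/day. The 900 mg/kg/day group alone lay wholly below vehicle. Its log2 fold change there was -0.77 ± 0.24, the lowest of the 9 genes at that dose and 58.6% of vehicle, with an edgeR adjusted p of 0.517 and a 95% interval of -1.29 to -0.25. The slope was -0.064 ± 0.023 (adjusted p = 0.596). At the lower doses it was -0.44 to -0.38. Of the 9 tested Sertoli markers, 4 had a negative log2 fold change at 900 mg/kg/day, with a median of 0.12, and none passed in edgeR. Sertoli markers summed to 1320 to 1560 CPM in vehicle and 1300 to 1500 CPM at 900 mg/kg/day.

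Acadl and Acadvl encode the long-chain and very long-chain acyl-CoA dehydrogenases, which carry out the first step of mitochondrial beta-oxidation. Acadl lies on chromosome 9 at 68333980 to 68372221 (minus strand) and varied least of the 9 genes, from 180 to 260 CPM over all libraries. Its vehicle, 300 and 600 mg/kg/day means were 235 ± 22.6, 235 ± 17.6 and 235 ± 13.2 CPM (SD, n = 3 each). All exposed groups overlapped with vehicle. At 300 and 600 mg/kg/day its log2 fold change was 0.0052 ± 0.11 and 0.0042 ± 0.11, each with a 95% interval of -0.24 to 0.25, and both turned negative without the filter on low counts (-0.027 and -0.024). At 100 and 900 mg/kg/day it was -0.22 ± 0.11 and -0.17 ± 0.13.

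Acadvl lies on chromosome 10 at 54732469 to 54738076 (minus strand). It was the gene with the fewest counts, 18 to 49 per library, which limits its precision. It was at 4.27, 3.58 and 5.60 CPM in vehicle, 2.48, 3.17 and 2.65 CPM at 100, 5.05, 3.56 and 3.15 CPM at 300, 3.13, 2.80 and 3.88 CPM at 600, and 3.73 and 2.15 CPM at 900 mg/kg/day. The 100 mg/kg/day group lay below vehicle without overlap, while the higher doses overlapped with it. The log2 fold change at 100 mg/kg/day was -0.69 ± 0.29, the lowest of the 9 genes at that dose, with an edgeR adjusted p of 0.9999 and a 95% interval of -1.32 to -0.06. At 300, 600 and 900 mg/kg/day it was -0.18 ± 0.28, -0.46 ± 0.29 and -0.62 ± 0.32.

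PPARs bind DNA with a partner receptor at a direct repeat of the hexamer AGGTCA spaced by 1 base, written AGGTCANAGGTCA. Promoters were taken from RefSeq on the GRCr8 assembly, a different build from the counts, and 6 of the 9 genes were matched in the table used here, namely Fabp3, Acadm, Acadvl, Acaa1a, Cpt1a and Hadha. The 250 bases before the start were searched on both strands for the repeat, exactly and with up to 2 mismatches, and for the hexamer, and a hexamer inside a repeat was counted in both. The exact repeat was in none of the 6 promoters and in 0.051% of 33360 rat promoters of this length. With up to 2 mismatches it was in 1 of the 6, Acadvl, and in 3.15% of all promoters, and the hexamer was in Acadvl too and in 14.1% of all. The match in Acadvl, at bases -17 to -5, has 1 mismatch, and a separate hexamer lies at -169 to -164. Below are the promoter of Acadvl, where capitals mark these matches, and that of Fabp3, the gene that passed, where neither was found. They lie at chr10:55236706-55236955 (minus strand) and chr5:147935875-147936124 (plus strand) on GRCr8. A match describes the letters only.
Acadvl: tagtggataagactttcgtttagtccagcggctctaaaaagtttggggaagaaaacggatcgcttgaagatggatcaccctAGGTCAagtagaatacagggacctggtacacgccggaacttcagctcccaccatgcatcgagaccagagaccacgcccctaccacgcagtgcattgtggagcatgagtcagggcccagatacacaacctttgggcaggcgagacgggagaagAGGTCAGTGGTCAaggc
Fabp3: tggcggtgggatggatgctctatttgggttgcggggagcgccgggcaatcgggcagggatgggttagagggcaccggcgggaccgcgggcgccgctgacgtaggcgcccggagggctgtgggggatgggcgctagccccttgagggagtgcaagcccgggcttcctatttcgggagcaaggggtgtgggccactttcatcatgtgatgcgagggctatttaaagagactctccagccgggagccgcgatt

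Acadm, Cpt1a and Hadha were high in both 900 mg/kg/day libraries and in 1 library each of the vehicle and 100 mg/kg/day groups. Acadm encodes the medium-chain acyl-CoA dehydrogenase and lies on chromosome 2 at 242858865 to 242883148 (minus strand). Cpt1a encodes the liver-type carnitine palmitoyltransferase of the outer mitochondrial membrane, the rate-limiting entry step, and lies on chromosome 1 at 200565613 to 200627056 (plus strand). Hadha encodes the alpha subunit of the mitochondrial trifunctional protein, which joins the middle steps of long-chain oxidation, and lies on chromosome 6 at 26187956 to 26227870 (plus strand).

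Acadm was at 68.1, 29.3 and 45.8 CPM in vehicle, 74.6, 30.6 and 29.6 CPM at 100, 25.8, 42.6 and 30.3 CPM at 300, 26.9, 37.2 and 30.5 CPM at 600 and 62.8 and 48.8 CPM at 900 mg/kg/day. Cpt1a was at 31.2, 14.2 and 13.0 CPM in vehicle, 31.0, 9.52 and 11.2 CPM at 100, 11.6, 14.9 and 11.1 CPM at 300, 10.3, 10.6 and 16.1 CPM at 600 and 24.7 and 20.3 CPM at 900 mg/kg/day. Hadha was at 284, 171 and 176 CPM in vehicle, 304, 170 and 160 CPM at 100, 158, 181 and 169 CPM at 300, 159, 151 and 156 CPM at 600 and 249 and 202 CPM at 900 mg/kg/day. The 4 highest libraries of each of these genes were vehicle replicate 1, 100 mg/kg/day replicate 1 and both 900 mg/kg/day libraries, the same 4 that lay apart on the first principal component. Vehicle replicate 1 exceeded the mean of the other vehicle litters 1.81-fold for Acadm, 2.29-fold for Cpt1a and 1.64-fold for Hadha. Replicate 1 at 100 mg/kg/day exceeded the others of its group 2.48-fold, 2.99-fold and 1.84-fold. Fabp3 was also higher in these libraries than in their group mates (1.29-fold and 1.2-fold), while Vnn1 was lower (0.739 and 0.628 of the others) and so was Acaa1a (0.719 and 0.812). Acadl (0.885 and 0.844) and Acadvl (0.93 and 0.852) were lower in both too, and Acaa2 was at 1.02 and 0.823 of the others.

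Against vehicle, the log2 fold change at 600 mg/kg/day was -0.60 ± 0.37 for Acadm, -0.67 ± 0.43 for Cpt1a and -0.43 ± 0.24 for Hadha, and at 900 mg/kg/day it was 0.22 ± 0.40, 0.20 ± 0.46 and 0.10 ± 0.26. None passed in edgeR, and the 95% intervals at 900 mg/kg/day ran from -0.64 to 1.09, -0.80 to 1.2 and -0.47 to 0.67. Hadha at 600 mg/kg/day was the single case of the 3 genes in which the exposed group lay wholly below vehicle. When both of those first replicates were left out, the values at 600 mg/kg/day were -0.25 ± 0.22, -0.16 ± 0.21 and -0.16 ± 0.098. Those at 900 mg/kg/day were then 0.54 ± 0.24, 0.69 ± 0.22 and 0.35 ± 0.11, and Cpt1a (edgeR adjusted p = 0.0434) and Hadha (0.0373) passed as higher while Acadm did not (0.136). In the same fit Fabp3 (-0.59 ± 0.12, adjusted p = 0.00592), Vnn1 (-0.93 ± 0.19, 0.00935) and Acaa1a (-0.82 ± 0.18, 0.00755) passed as lower, and 2102 of 12608 tested genes passed. The omitted litters were those whose first-component scores resembled the 900 mg/kg/day litters, so in this fit the component and the dose cannot be told apart.

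**Figure D3:**
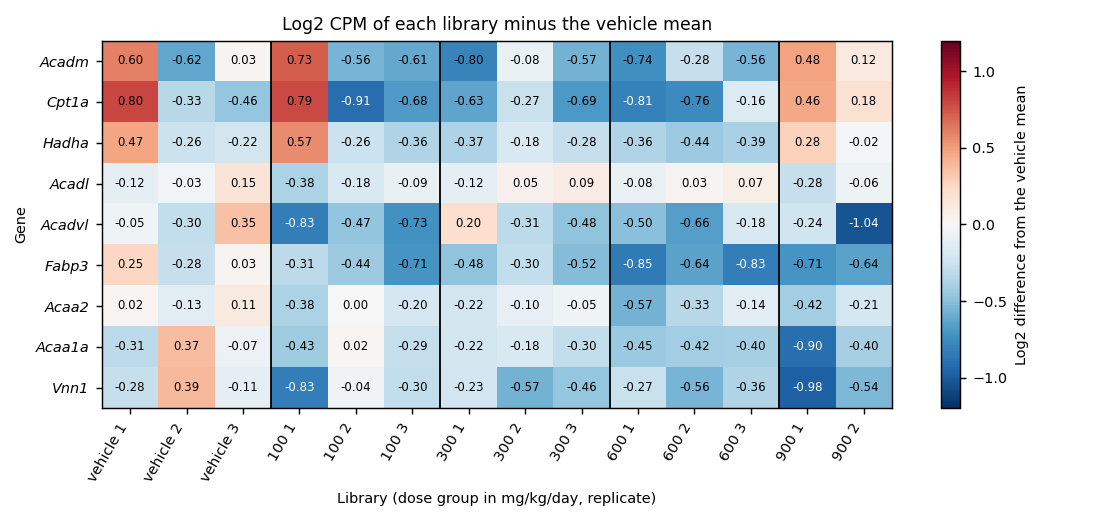
Log2 CPM of each gene (rows) in each of the 14 libraries (columns, by dose group in mg/kg/day and replicate) minus the mean of the 3 vehicle libraries. Red is above and blue below the vehicle mean; Acadm, Cpt1a and Hadha are red in vehicle 1, 100 replicate 1 and 900 replicate 1, where Acaa1a and Vnn1 are blue, and Fabp3 is blue in all exposed libraries.

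Likeness between genes was measured as the root mean square difference of log2 CPM over the 14 libraries, each gene centred on its mean. Among the 9 genes, the closest pair was Acaa1a and Vnn1 (0.154 log2 units), followed by Acadl and Acaa2 (0.166). Acadm was 0.243 from Hadha and 0.258 from Cpt1a, and the farthest pair was Cpt1a and Vnn1 (0.767). These distances are a description, since the genes share their libraries, and they are small between genes that vary little. The SD of log2 CPM over the 14 libraries was 0.141 for Acadl, 0.181 for Acaa2, 0.273 for Acaa1a and 0.327 for Vnn1. It was 0.499 for Acadm, 0.556 for Cpt1a and 0.319 for Hadha. Among 9427 other named genes with a mean count of at least 20, the gene closest to Cpt1a was Hadhb (0.156), the beta subunit gene of the trifunctional protein. Hadhb was at 155, 65.3 and 75.8 CPM in vehicle and at 127 and 109 CPM at 900 mg/kg/day, and at 150 CPM in 100 mg/kg/day replicate 1 with 60.4 and 55.6 CPM in its group mates. Its log2 fold change was -0.61 ± 0.37 at 600 and 0.26 ± 0.41 at 900 mg/kg/day, without a call.

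The 5 genes closest to Fabp3 were Prdx3, a mitochondrial peroxiredoxin gene (0.139), Sec14l4, of a family of lipid-binding proteins (0.149), Acyp2, an acylphosphatase gene (0.173), Hsd17b7, an enzyme of cholesterol synthesis (0.175), and Clic2, of the chloride intracellular channel family (0.175). Their log2 fold changes at 600 mg/kg/day were -0.65 ± 0.16, -0.97 ± 0.24, -0.38 ± 0.17, -0.68 ± 0.15 and -0.62 ± 0.19, and none passed in edgeR (adjusted p 0.177 to 0.950). Closest to the other genes were Crtapl1 and Asf1a for Acadl (0.066 each), Pum2 (0.106) and Pnn (0.117) for Acadm, Klk1c3 (0.216) and Mt3 (0.233) for Acadvl, and Gpr137b (0.114) and Hipk2 (0.116) for Acaa1a. For Acaa2 they were Cd82 (0.116) and Eif2b3 (0.124), for Hadha Xrn1 (0.083) and Lrrc8d (0.084), and for Vnn1 Copz2 (0.096) and Cyb5a (0.100), while Kif13b (0.164) was the second for Cpt1a.

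Between neighbouring doses none of the 9 genes passed in edgeR from 100 to 300, 300 to 600 or 600 to 900 mg/kg/day, where 0% of all genes passed, and DESeq2 called none of the 9 either. At an unadjusted p under 0.05 there were 0, 1 and 0 of the 9 genes, against 2.45%, 1.27% and 8.32% of all genes. The single gene was Fabp3 at 600 against 300 mg/kg/day (-0.34 ± 0.14, edgeR adjusted p = 1). Fabp3 and Acaa1a lay lower without overlap at 600 than at 300 mg/kg/day, as did 3.97% of all genes. From 600 to 900 mg/kg/day Acadm (0.82 ± 0.40), Cpt1a (0.87 ± 0.47) and Hadha (0.54 ± 0.26) lay higher without overlap, as did 26.3% of all genes. These 3 genes passed when the 5 libraries of those doses were fitted alone, at 0.78 ± 0.16, 0.84 ± 0.20 and 0.49 ± 0.11 (edgeR adjusted p = 0.00465, 0.0129 and 0.00719). In that fit 2143 of 11885 genes passed. Its 900 mg/kg/day libraries scored -38.2 and -22.8 on the first principal component and its 600 mg/kg/day libraries 6.11 to 20.5. The component and the dose can therefore not be told apart in that fit either.

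Other genes of fatty acid use are described by list. None of the 5 tested carnitine shuttle genes, 15 mitochondrial beta-oxidation genes, 11 peroxisomal genes, 13 other PPAR targets or 3 other fatty acid binding protein genes passed at any dose or in the trend in edgeR. Fabp4 stands in both of the last lists. At an unadjusted p under 0.05 at 600 mg/kg/day there were 0, 1, 0, 1 and 0 genes of these lists, and at 900 mg/kg/day 0, 1, 3, 1 and 0. Of all 12719 tested genes, 609 and 635 were under 0.05 at these doses. In the trend there were 0, 1, 3, 0 and 0 genes of the lists and 648 of all genes. Median log2 fold changes at 600 mg/kg/day were 0.090, -0.10, -0.28, -0.001 and -0.001 in the same order, against -0.021 for all genes. The peroxisomal list had 10 of 11 negative values at 600 mg/kg/day and 7 of 11 at 900 mg/kg/day, against 53.2% and 46.9% of all genes.

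**Figure D4:**
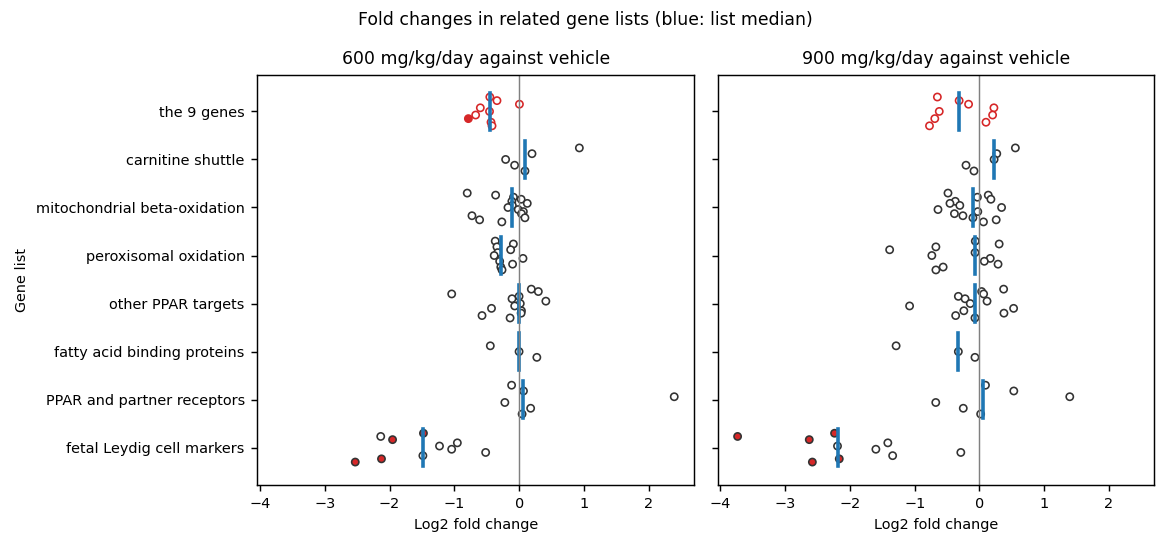
Log2 fold change (horizontal axis) of each tested gene of the related lists at 600 (left) and 900 mg/kg/day (right) against vehicle. Each circle is 1 gene, filled circles passed in edgeR, and the blue bar is the list median; outside the Leydig markers, whose medians were -1.48 and -2.18, Fabp3 at 600 mg/kg/day is the single filled circle.

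The peroxisomal genes with the smallest p in the trend were Phyh, which starts the alpha-oxidation of branched chains, Amacr, a racemase for the same chains, and Scp2, a peroxisomal thiolase and sterol carrier gene. Phyh was at 209, 294 and 227 CPM in vehicle and 160 and 170 CPM at 900 mg/kg/day, without overlap, and its slope was -0.050 ± 0.014 per 100 mg/kg/day (edgeR adjusted p = 0.206). The slopes of Amacr and Scp2 were -0.065 ± 0.024 and -0.058 ± 0.023. In the mitochondrial list the smallest trend p belonged to Acad10 (-0.058 ± 0.026), Eci2 (-0.051 ± 0.028) and Acat1 (-0.026 ± 0.018 per 100 mg/kg/day). Acad10, of the acyl-CoA dehydrogenase family, was at -0.80 ± 0.22 at 600 mg/kg/day (edgeR adjusted p = 0.439). In the carnitine list they were Cpt1b (0.069 ± 0.047), Cpt2 (0.017 ± 0.020) and Cpt1c (0.035 ± 0.054), and in the PPAR target list Me1 (-0.068 ± 0.042), Plin2 (-0.023 ± 0.017) and Acot1 (0.048 ± 0.037). The slopes of the 3 tested binding protein genes were -0.075 ± 0.070 for Fabp4, -0.067 ± 0.094 for Fabp12 and 0.013 ± 0.062 for Fabp9.

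Several liver targets of PPAR alpha were at the limit of detection. Cyp4a1, a fatty acid hydroxylase gene, was at 0 in 7 libraries and at most 0.306 CPM, Pdk4 was at 0 in 2 libraries with at most 0.9 CPM, and Ehhadh, the peroxisomal bifunctional enzyme gene, did not exceed 1.5 CPM. These 3 genes did not pass the filter, nor did Vnn3, the other pantetheinase gene of the list (at most 0.466 CPM). Fabp1, the liver-type binding protein gene, was at most at 1.52 CPM and Fabp4 at 2.35 CPM. Among the receptors and partners, Ppara was at 1.11 to 3.00 CPM and Ppard at 0.914 to 2.06 CPM, Pparg did not pass the filter (at most 1.5 CPM), and Rxrb was at 71.1 to 89.6 CPM. None of the 6 tested receptor and coactivator genes passed in edgeR. Ppara was at -0.12 ± 0.38 at 600 and 0.093 ± 0.41 at 900 mg/kg/day, and the trend slopes with the smallest p were those of Ppargc1a (0.13 ± 0.12), Ppard (0.030 ± 0.035) and Ppargc1b (-0.033 ± 0.042).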

How the data were processed

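TempO-Seq libraries from 14 litters were analysed, grouped by the dose given in the labels. The estimated counts were made by the submitters and used as deposited, without normalization; per the submitters' processing notes, which do not tie tools to tables, STAR 2.7.8a, Partek, DESeq2 and rn7 were used. Values were rounded first (83.6% were already whole within 1e-09). A deposited table of attenuation-adjusted estimated counts served as an alternative. A filter (filterByExpr on dose groups) kept 12719 of 18174 genes, of which the 9 described had mean counts of 29.6 to 3898. TMM scaling and 1 quasi-likelihood model (edgeR 4.0.16, R 4.3.3) over 14 libraries gave log2 fold changes, and a separate model gave slopes per 100 mg/kg/day. Tests were two-sided with Benjamini-Hochberg adjustment over all tested genes. DESeq2 1.42.0 was an alternative. The edgeR models were also run on simulated data, with independent genes of equal dispersion. That simulation held no component shared between genes, so it does not bear on the first principal component.

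CPM use TMM-scaled totals. Probes differ in efficiency, so levels are not compared between genes, and gene coordinates (rn7) come from the deposited tables. All 9 genes are named, with the genes of the fatty acid and PPAR lists that passed or had the 3 smallest trend p of their list, and the genes most like each of the 9. Other genes of these lists, and single cell type markers, are named as examples chosen after their values were seen. The 9 genes, the lists and the comparisons were chosen with earlier results of these data known. The litter is the replicate.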

Additional observations from a re-analysis of the deposited data

How the results depend on the processing

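No paired analysis was made, since each library is a separate litter given a single dose. The labels hold no replicate numbers, and the numbers used here follow accession order. Fabp3 at 600 mg/kg/day was the single one of the 9 genes called against vehicle; with RLE size factors, without the filter on low counts, or with only the compared groups fitted, the number called there was 0, and over the fits leaving out 1 library it was 0 to 1. At 900 mg/kg/day DESeq2 called 1 of the 9 genes, and leaving out replicate 1 of both vehicle and 100 mg/kg/day gave 5. From 600 to 900 mg/kg/day, 3 were called with only those groups fitted and 3 with both of those replicates left out. For the trend, DESeq2 called 1, dose as rank 1, and leaving out both replicates 4. Those 4 were Fabp3, Acaa2, Vnn1 and Acaa1a, all with negative slopes. The causes of these changes were not tested. Counts over all genes moved too. At 100 mg/kg/day DESeq2 called 2 genes against 0. At 300 mg/kg/day 6 genes became 26 with DESeq2, 39 without both replicates and 0 to 9 when leaving out 1 library. At 600 mg/kg/day 28 became 15 with RLE size factors, 58 with DESeq2, 8 with only those groups, 66 without both replicates and 6 to 50 when leaving out 1 library. At 900 mg/kg/day 32 became 86, 4 and 2102 with DESeq2, only those groups and without both replicates, and 0 to 50 when leaving out 1 library. From 600 to 900 mg/kg/day 0 became 8, 2143 and 1769 in the same order. In the trend 54 became 119 with DESeq2, 80 with dose as rank and 1494 without both replicates. It became 17 without the 900 mg/kg/day group and 30 to 76 when leaving out 1 library. Library totals alone moved the median of all genes to 0.105 at 900 mg/kg/day against vehicle and 0.139 from 600 to 900 mg/kg/day.

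Over all alternatives 1403 values of the 9 genes kept their direction and side of the threshold, 18 gained a call, 15 lost one and 93 turned direction. The log2 values that turned are given by alternative. Without replicate 1 of both vehicle and 100 mg/kg/day they were -0.0669 for Hadha (100 mg/kg/day against vehicle), -0.0516 for Acadl (300 mg/kg/day against vehicle), -0.0516 for Acadl (600 mg/kg/day against vehicle), 0.1213 for Acadm (300 mg/kg/day against 100), -0.0260 for Acaa2 (300 mg/kg/day against 100), 0.2629 for Cpt1a (300 mg/kg/day against 100), 0.0312 for Hadha (300 mg/kg/day against 100), 0.0286 for Hadha (the slope per 100 mg/kg/day). Without the filter they were -0.0266 for Acadl (300 mg/kg/day against vehicle), -0.0235 for Acadl (600 mg/kg/day against vehicle), 0.0031 for Acadl (600 mg/kg/day against 300). With library totals only they were -0.0205 for Acadl (600 mg/kg/day against vehicle), 0.0061 for Acaa1a (300 mg/kg/day against 100), -0.0330 for Vnn1 (600 mg/kg/day against 300), 0.0019 for Acadl (the slope per 100 mg/kg/day). With RLE size factors they were 0.0097 for Acadl (600 mg/kg/day against 300), -0.0098 for Acaa2 (900 mg/kg/day against 600). With DESeq2 they were 0.0098 for Acadl (600 mg/kg/day against 300), -0.0090 for Acaa2 (900 mg/kg/day against 600). With only the compared groups fitted they were -0.0110 for Acaa2 (900 mg/kg/day against 600). Without the 900 mg/kg/day group they were 0.0172 for Acadl (the slope per 100 mg/kg/day), -0.1038 for Acadm (the slope per 100 mg/kg/day), -0.1124 for Cpt1a (the slope per 100 mg/kg/day). With dose as rank they were -0.0230 for Acadm (the slope per 100 mg/kg/day), -0.0253 for Cpt1a (the slope per 100 mg/kg/day). When 1 library was left out, the ranges of the log2 values that turned in at least 1 fit were as follows. For 100 mg/kg/day against vehicle they were -0.6659 to 0.2578 for Acadm, -0.9082 to 0.3323 for Cpt1a, -0.3502 to 0.2854 for Hadha. For 300 mg/kg/day against vehicle they were -0.0508 to 0.0847 for Acadl, -0.4046 to 0.0073 for Acadvl. For 600 mg/kg/day against vehicle they were -0.0522 to 0.0835 for Acadl. For 900 mg/kg/day against vehicle they were -0.0336 to 0.5717 for Acadm, -0.0153 to 0.7195 for Cpt1a, -0.0475 to 0.3793 for Hadha. For 300 mg/kg/day against 100 they were -0.0525 to 0.1404 for Fabp3, -0.6781 to 0.1287 for Acadm, -0.1044 to 0.1228 for Acaa1a, -0.0202 to 0.1691 for Acaa2, -0.7418 to 0.2702 for Cpt1a, -0.4850 to 0.0374 for Hadha, -0.2518 to 0.1261 for Vnn1. For 600 mg/kg/day against 300 they were -0.0588 to 0.0433 for Acadl, -0.2092 to 0.1686 for Acadm, -0.2676 to 0.1073 for Cpt1a, -0.0503 to 0.1249 for Vnn1. For 900 mg/kg/day against 600 they were -0.5821 to 0.2041 for Acadvl, -0.4641 to 0.0417 for Acaa1a, -0.0740 to 0.1412 for Acaa2. For the slope per 100 mg/kg/day they were -0.0081 to 0.0094 for Acadl, -0.0381 to 0.0272 for Acadm, -0.0355 to 0.0402 for Cpt1a, -0.0388 to 0.0079 for Hadha. The values of Acadvl rest on 18 to 49 counts per library, and the model of the 5 dose groups has 9 residual degrees of freedom.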
